A study of Homo sapiens with 4 samples.

Results

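Of the 9900 m6A regions that were called in H1 human embryonic stem cells, 821 (8.29%) were narrow, lay in an intron other than the first of the annotated transcript, and had no repeat at their centre. They were chosen by position and width. The centre of the region had to carry the annotation of intron 2 or a later intron, with no repeat name beside it, and the region could span at most 2000 bp. Starting from 4967 regions centred in introns, 3653 were in intron 2 or later, 1648 of these had no repeat at the centre, and 821 of those were within the width limit. The last intron of the transcript held 317 of them and the other later introns held 504. These numbers and the width describe how the regions were selected and are given without a test.

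N6-methyladenosine (m6A) is a methylated form of adenosine that is placed on RNA while it is being transcribed. In mature messenger RNA it is known mainly from long internal exons, the surroundings of the stop codon and the 3′ untranslated region. Introns are removed from most transcripts in the nucleus, so m6A in an intron is carried by precursor RNA, by a transcript that keeps the intron, by an exon that the annotation does not hold, or by another RNA made from the same stretch. The regions here were placed by their centre alone. A region centred in an intron can also reach an annotated exon, and its m6A may lie there. The last intron is the one that precedes the final exon, which in most genes holds the stop codon and the 3′ untranslated region.

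The regions came from m6A-seq, in which RNA is recovered with an antibody against m6A and sequenced beside the starting RNA. There were 2 pull-down (m6A_IP) and 2 input libraries, all from total RNA of wild-type H1 cells, an established embryonic stem cell line, with no treatment or genotype contrast. Every region belonged to 1 set that had been intersected from MACS2 peaks on hg38, and neither a height nor a score nor a value for each library came with it. There was therefore no replicate error, and the depth of each library and the RNA level of each gene were unknown here. All intervals are 95% exact (Clopper-Pearson) binomial intervals, which cover counting error only, and regions of 1 gene share their source.

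Among the hosts are 7 small genes of the TCEAL and BEX families on the X chromosome, and 3 of them are shown because their region opened at the start of the gene. This was uncommon: the 5′ edge lay within 100 bp of the gene's start for 5 of 248 regions in last introns (2.02%) and 6 of 413 in other later introns (1.45%) with a known strand. TCEAL proteins resemble the transcription elongation factor TFIIS, and BEX proteins are small proteins known from the nervous system. Each sequence has 70 bases before and 30 bases from the RefSeq start site (GRCh38.p14), 5′ to 3′ on the strand of the gene. Capitals mark the bases inside the m6A region.
TCEAL3 at chrX:103607893-103607992, plus strand: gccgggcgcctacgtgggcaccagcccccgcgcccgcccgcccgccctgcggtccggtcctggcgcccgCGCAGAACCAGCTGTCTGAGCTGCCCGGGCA
TCEAL9 at chrX:103356436-103356535, plus strand: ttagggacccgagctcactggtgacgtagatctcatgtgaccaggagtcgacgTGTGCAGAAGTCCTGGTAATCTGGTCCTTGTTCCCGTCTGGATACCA
BEX1 at chrX:103064142-103064241, minus strand: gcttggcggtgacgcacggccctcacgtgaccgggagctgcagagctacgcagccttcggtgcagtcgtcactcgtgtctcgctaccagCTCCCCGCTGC
In these 3 genes the region opened within 20 bp of the annotated start, although its centre was annotated as intron 2 of 2. The region at TCEAL3 began 1 bp before the start and that at TCEAL9 began 17 bp before it. The region at BEX1 began 19 bp after the start. No sequence of a whole region is shown, because no genome was used here.

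The TCEAL and BEX genes were singled out after their values had been seen. Of 9 TCEAL genes 5 hosted a region (55.6%, interval 21.2 to 86.3%), and of 5 BEX genes 2 did (40.0%, 5.27 to 85.3%), and all 7 regions lay in last introns. For 6 of the 7 this was fixed by the choice of regions, since their transcripts have 2 introns. Among all 20056 protein-coding genes, 716 hosted at least 1 of the 821 regions (3.57%), 291 hosted one in a last intron (1.45%) and 438 hosted one in another later intron (2.18%). The neighbouring ARMCX genes, which encode armadillo repeat proteins, gave 1 host of 6, ARMCX1, whose region lay in intron 2 of 3. The region covered 78.0% of the 1965 bp gene body of TCEAL3, 74.4% of TCEAL2, 72.1% of TCEAL9, 71.5% of BEX1, 59.9% of TCEAL5 and 57.0% of BEX5. In TCEAL4, a longer gene of 11499 bp, the region was in intron 4 of 4 and covered 14.2%. The 3′ edge of the region stopped 373 to 570 bp short of the 3′ end of the gene in all 7. These genes are paralogs, and the sources used here do not say how reads that align to more than 1 of them were treated.

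**Figure D1:**
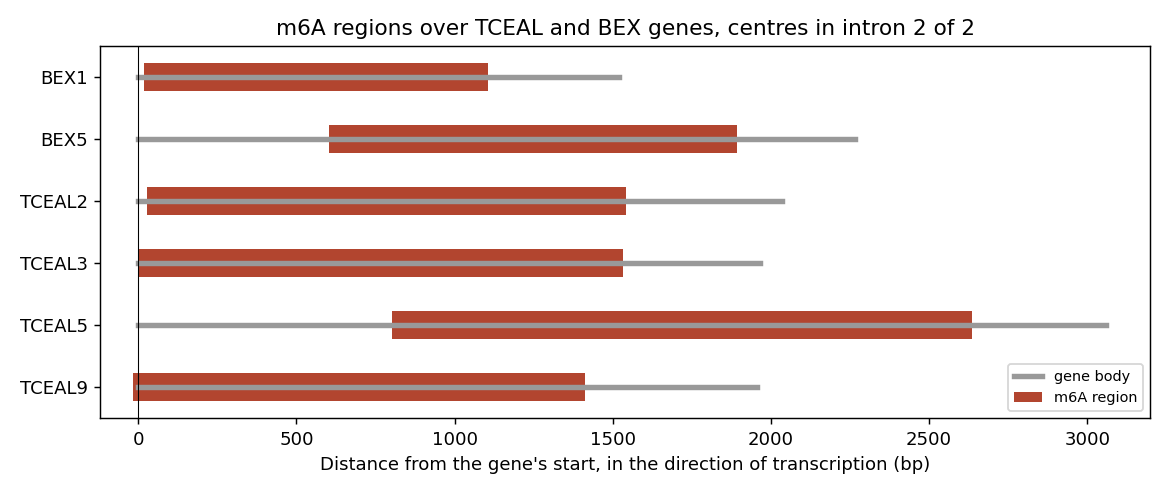
Gene bodies (grey) and m6A regions (red) of the 6 TCEAL and BEX genes whose region was centred in intron 2 of 2, plotted by distance in bp from the annotated start in the direction of transcription. TCEAL3, TCEAL9, TCEAL2 and BEX1 have regions that open within 28 bp of the start, whereas those of TCEAL5 and BEX5 open 803 and 602 bp after it.

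Regions that took up much of a gene were few overall. At least 50% of the gene body was covered by 9 of 313 regions in last introns (2.88%) and by 1 of 498 in other later introns (0.201%). Besides the 6 genes drawn in the plot of TCEAL and BEX genes, they were ID2 (74.3%), an inhibitor of helix-loop-helix transcription factors, MRPL20-AS1 (66.5%), GADD45A (51.3%), a gene induced by stress and DNA damage, and SMIM1 (59.6%), which encodes a small membrane protein of red blood cells. At least 10% of the body was covered by 64 of 313 regions in last introns (20.4%), against 37 of 498 in other later introns (7.43%). The median share covered was 3.14% for last introns and 1.57% for other later introns. Hosts of last-intron regions were shorter, with a median gene body of 41666 bp over 291 protein-coding genes, against 74582 bp over 438 hosts of other later-intron regions.

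The last intron held 317 of the 821 regions, or 38.6% (35.3 to 42.04%). If each later intron of the same transcript were given an equal weight, regardless of its length, 158.4 regions (19.3%) would fall there. Of the 317, 45 lay in transcripts of 2 introns, where the only later intron is also the last. In transcripts of 3 or more introns the last one held 272 of 776 regions (35.1%, 31.7 to 38.5%), against 14.6% by equal weight. The share was 49.7% in transcripts of 3 to 5 introns (77 of 155), where equal weight gives 36.9%. It was 37.7% in those of 6 to 10 introns (78 of 207) and 29.2% in those of 11 to 20 (75 of 257), where equal weight gives 15.1% and 7.57%. In transcripts of 21 or more introns it was 26.8% (42 of 157), against 3.61% by equal weight. The ratio of the observed to the equal-weight share thus went from 1.35 in the shortest class to 2.50, 3.85 and 7.41 in the others. A small equal-weight share leaves room for a larger ratio, so the rise reflects the falling equal-weight share as well as the observed one. Intron lengths were not used here, and a last intron that is longer than the others would hold more regions by length alone.

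Introns near the last one were also compared with those near the start. In the 667 regions of transcripts with 5 or more introns, equal weight gives each place 10.2%. The last intron held 217 (32.5%, 29.0 to 36.2%), the one before it held 98 (14.7%, 12.1 to 17.6%), and the next one towards the start held 59 (8.85%, 6.80 to 11.3%). Intron 2 held 65 (9.75%) and intron 3 held 50 (7.50%). The last intron and the one before it were the places, of these 5, whose interval lay above the equal-weight share. The interval of intron 3 (5.62 to 9.76%) lay below it.

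The share of regions in last introns differed from that in the other later-intron regions of the set. This comparison was chosen after the data had been seen and is limited to transcripts of 3 or more introns. The share was 35.1% for the narrow regions without a repeat. It was 16.9% for 1030 narrow regions with a repeat (14.7 to 19.3%), 28.5% for 799 wide regions without one (25.4 to 31.8%) and 24.3% for 906 wide regions with one (21.5 to 27.2%). The odds of lying in a last intron were 2.66 times those of narrow regions with a repeat. They were 1.35 times those of wide regions without a repeat and 1.68 times those of wide regions with one. Intron number, width and repeat chose these sets, and regions of 1 gene share their source. The odds are therefore a description, and no test of them is read. The median number of introns per transcript was 11 in each of these sets except the narrow regions with a repeat, where it was 13. The equal-weight shares were 14.6%, 13.2%, 14.1% and 15.2% in the same order of sets.

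**Figure D2:**
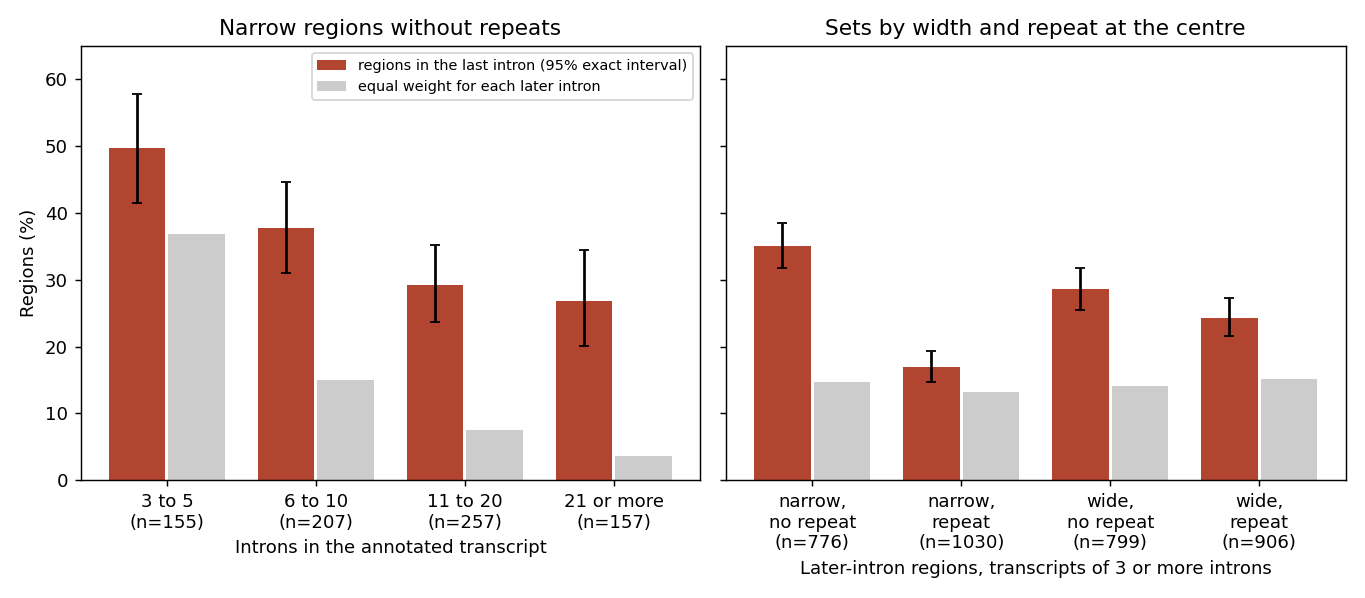
Percentage of regions centred in the last intron of the annotated transcript (red, with 95% exact intervals) beside the percentage given by an equal weight for each later intron (grey). The left panel shows the narrow regions without a repeat by the number of introns in the transcript, where the observed share falls from 49.7% to 26.8% while the equal-weight share falls from 36.9% to 3.61%; the right panel sets them beside the other later-intron regions, whose shares are 16.9%, 28.5% and 24.3%.

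Last-intron regions lay near the 3′ end of their gene, which follows in part from what a last intron is. The strand of the host was known for 661 regions. The centre was a median of 2628 bp from the annotated 3′ end in last introns (quartiles 1458 and 5622 bp, n = 248), against 19100 bp in other later introns (8564 and 47945 bp, n = 413). The centre fell in the last 10% of the gene body for 141 of 248 regions in last introns (56.9%), against 61 of 413 in other later introns (14.8%). A distance of over 20 kb from the 3′ end was found for 22 of 248 (8.87%) in last introns, against 201 of 413 (48.7%) in other later introns.

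Some last-intron regions ended almost at the end of the gene, although their centre was annotated as intronic. These counts of edges were chosen after the data had been seen. The 3′ edge came within 500 bp of the annotated end, or passed it, in 46 of 248 regions of last introns (18.5%, 13.9 to 23.9%), against 2 of 413 in other later introns (0.484%, 0.0587 to 1.74%). Within 100 bp the counts were 10 of 248 for last introns and 1 of 413 for other later introns. The gap was 15 bp in DDX56, a nucleolar RNA helicase gene, 14 bp in ZNF688, 21 bp in KLKB1, which encodes plasma prekallikrein, 19 bp in TRIML2 and 38 bp in MAN1B1, a mannosidase of the endoplasmic reticulum. The mitochondrial ribosomal protein genes MRPL27 and MRPL46 had gaps of 15 and 27 bp. In MED16, a subunit of the Mediator complex that links transcription factors to RNA polymerase II, the gap was -555 bp, since the region ran past the annotated end. These genes were named after their values had been seen. Exon coordinates were not used here, so how many of the 821 regions reach an exon was not counted.

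A last intron could also lie far from the 3′ end of the gene. WWOX, a large gene at a common fragile site, had a region of 1135 bp in intron 7 of 7 of its annotated transcript, 705976 bp from the 3′ end of the gene. The annotated transcript was the one that the deposited annotation named, which need not be the one used in these cells.

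**Figure D3:**
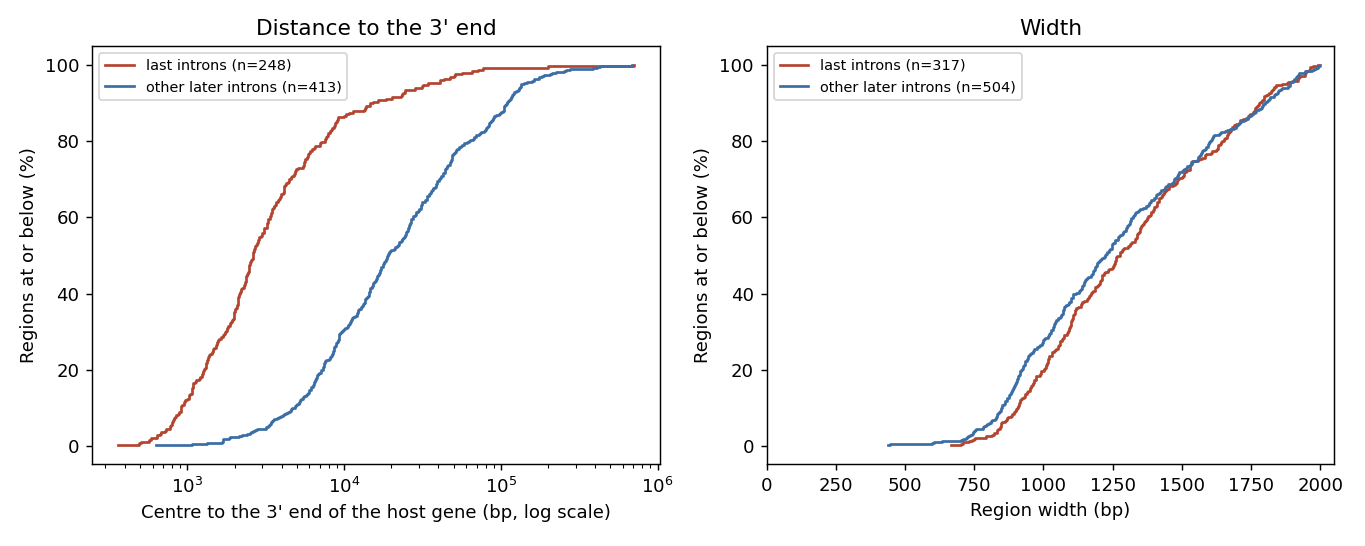
Cumulative percentage of regions by the distance of the centre to the 3′ end of the host gene (left, bp on a log scale; 248 regions in last introns and 413 in other later introns with a known strand) and by width (right, bp; 317 and 504 regions). The curve of distance for last introns (red) reaches 50% at 2628 bp and that for other later introns (blue) at 19100 bp, whereas the curves of width lie close together.

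Widths ran between 438 and 1999 bp with a median of 1247 bp and quartiles of 1002 and 1557 bp, against a median of 1527 bp over all 9900 regions. The median was 1275 bp in last introns and 1222 bp in other later introns. The widest regions inside the limit were in DHX29 (1999 bp, intron 10 of 26), a helicase of translation initiation, and TCOF1 (1996 bp, intron 23 of 25), which encodes the ribosome biogenesis factor treacle. Just outside it were HARBI1 (2003 bp, intron 2 of 2) and DHODH (2005 bp, intron 7 of 8), an enzyme of pyrimidine synthesis. The widest regions in last introns were in FBXW7 (1993 bp, intron 10 of 10), a ubiquitin ligase subunit, FKBP10 (1974 bp, intron 9 of 9), a collagen chaperone, and RNF4 (1964 bp, intron 7 of 7), a ubiquitin ligase that recognises SUMO. Intron numbers reached 90 of 104 in RYR2, a calcium release channel, and the most introns were in SNHG14, a long non-coding RNA of the Prader-Willi region, whose region lay in intron 15 of 147. The nearest region to its annotated start site was in NKD2, an inhibitor of WNT signalling, at 383 bp. The farthest was that of CSMD1, at 581766 bp from a start site.

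Hosts of last-intron regions less often had another region centred in an exon. An exonic m6A region was present in the same gene for 50 of 314 regions in last introns (15.9%, 12.1 to 20.4%), against 127 of 500 in other later introns (25.4%, 21.6 to 29.4%). Over all protein-coding genes 12.8% had an exonic region (2569 of 20056), which lies within the interval for last introns. That share counts genes, not regions, and those genes have a shorter median body (24093 bp) than last-intron hosts (41666 bp). Counted by gene, 155 of the 716 hosts had one (21.65%). Between last and other later introns the difference was -9.48 percentage points, with an odds ratio of 0.556 (two-sided Fisher's exact test, adjusted p = 0.0061 over the 15 tests of 5 features and 3 comparisons). This feature belongs to the gene, so genes with several regions count more than once. With 1 region per host gene in each set the difference was -8.44 points (Fisher's exact test, adjusted p = 0.0180). Host gene length moved with it, so the shares were also taken within classes of length. In host bodies of up to 61562 bp, the median, the share was 23 of 197 for last introns (11.7%, 7.55 to 17.0%). For other later introns it was 41 of 209 (19.6%, 14.5 to 25.7%). In longer bodies the shares were 27 of 116 (23.3%, 15.9 to 32.0%) and 86 of 289 (29.8%, 24.55 to 35.4%) in the same order. The intervals overlapped in each class. These classes were set after the data had been seen and were not tested. A region counted as exonic only by its centre, so one centred in the last intron that reached the final exon did not count. The 3′ edge lay within 2000 bp of the gene's 3′ end, or past it, for 125 of 248 last-intron regions (50.4%). The count was 17 of 413 in other later introns (4.12%). How far this bears on the difference was not tested. Where the gene had one, the nearest exonic region was a median of 11299 bp from last-intron centres (n = 50) and 13819 bp from other later-intron centres (n = 127).

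A second gene lay over the centre of 30 of 314 last-intron regions (9.55%, 6.54 to 13.4%), against 78 of 500 in other later introns (15.6%, 12.5 to 19.1%). This difference of -6.05 points passed the threshold (Fisher's exact test, adjusted p = 0.0403), but it did not among regions of 1000 bp or more (adjusted p = 0.108) or transcripts of 3 or more introns (adjusted p = 0.162). Split by kind after the data had been seen, the second gene was a pseudogene for 3 of 314 (0.955%) and 25 of 500 (5%) in last and other later introns, a difference of -4.04 points (Fisher's exact test, adjusted p = 0.00488). The second gene was a long non-coding RNA gene for 16 (5.10%) and 41 (8.20%), and a protein-coding gene for 10 (3.18%) and 15 (3%), and neither kind alone passed the threshold. Each kind was adjusted over 15 tests, which does not count the choice among kinds. Hosts of other later-intron regions also had longer bodies (median 74582 bp, against 41666 bp for last introns), and gene length was not held fixed here. No centre lay in a small nucleolar RNA or microRNA gene of the gene table.

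Some of these pseudogenes are processed copies, that is, intron-less inserts made from the messenger RNA of another gene. EEF1A1P19, a copy of the translation elongation factor gene EEF1A1, spans 1645 bp in C5orf34. It held the centre of a region of 1569 bp in intron 6 of 12, and that centre also lay in the gene C5orf34-AS1. Others were shorter than the region over them. RPL12P25, a ribosomal protein copy of 617 bp, lay under a region of 908 bp in intron 3 of 15 of KANK1. HMGB1P31, a copy of a chromatin protein gene, spans 427 bp and lay under a region of 1037 bp in intron 3 of 6 of ACYP2. NUDCP2 (928 bp) lay in PJVK with a region of 915 bp, and CAP2P1 (1676 bp) in FOXN3 with a region of 1797 bp. The parent gene could be read from the symbol for 21 of 29 such pseudogenes. Of these 21 parents 3, NSRP1, RAB11FIP1 and SLC35E1, had an exonic m6A region of their own, a share near the 12.8% of all protein-coding genes. The parents EEF1A1, RPL12, HMGB1, NUDC and CAP2 of the copies described above had none. Reads of a parent messenger RNA can align to its copy, and whether they did was not tested. The genes of this paragraph were chosen after their values had been seen.

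ZNF genes, the large family of C2H2 zinc finger transcription factors, hosted 19 of 314 regions in last introns (6.05%, 3.68 to 9.29%), against 13 of 500 in other later introns (2.60%, 1.39 to 4.40%). The coding part for the zinc fingers usually lies in the last exon of these genes. The difference of 3.45 points, an odds ratio of 2.41, passed the threshold (exact test, adjusted p = 0.0403), but it missed the threshold among regions up to 1500 bp (adjusted p = 0.248), of 1000 bp or more (0.388), in transcripts of 3 or more introns (0.162) and with 1 region per gene (0.0672). Of 517 protein-coding ZNF genes 32 hosted a region (6.19%), against 3.57% of all protein-coding genes. Last-intron hosts included ZNF131 (1926 bp, intron 7 of 7), ZNF619 (1811 bp, intron 4 of 4), ZNF23 (1680 bp, intron 2 of 2) and ZNF669 (1679 bp, intron 3 of 3), the widest of the 19, named after their values had been seen.

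Non-coding transcripts carried 37 of 317 last-intron regions (11.7%) and 61 of 504 other later-intron regions (12.1%), with adjusted p = 0.912 by Fisher's exact test and an odds ratio of 0.960. By gene type of the matched transcript, 769 of 814 regions were in protein-coding genes (94.5%), 32 in long non-coding RNA genes and 12 in transcribed pseudogenes. The last one carried a transcript of a microRNA gene whose body did not hold the centre. A gene boundary lay within 2 kb of 110 of 313 last-intron centres (35.1%), against 24 of 498 other later-intron centres (4.82%). That feature is largely built into the position of a last intron, so its test is not read.

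The later-intron regions were also compared with the 220 narrow first-intron regions without a repeat that had a host. A gene boundary lay within 2 kb of 134 of 811 later-intron centres (16.5%), against 133 of 220 first-intron centres (60.5%). A first intron lies next to the start of its gene, so this follows from the choice by intron number, and its test is not read. An exonic region in the same gene was found for 177 of 814 later-intron regions (21.7%) and 61 of 220 first-intron regions (27.7%), with an adjusted p of 0.152 by Fisher's exact test. Among regions of 1000 bp or more that difference was -12.1 points and passed (exact test, adjusted p = 0.00794). The shares of non-coding transcripts (11.9% in later and 13.1% in first introns), second genes (13.3% and 14.1%) and ZNF hosts (3.93% and 5.91%) did not pass either (adjusted p between 0.334 and 0.792 by the exact test). Against 827 wide later-intron regions without a repeat, a boundary within 2 kb of the centre was found for 16.5% of narrow and 3.79% of wide regions. The wide regions had a median width of 4576 bp, so the width limit itself bears on that feature, and its test is not read. The other 4 features did not pass, with 21.7% of narrow and 22.8% of wide regions for an exonic region in the gene and 13.3% of narrow and 11.2% of wide regions for a second gene.

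**Figure D4:**
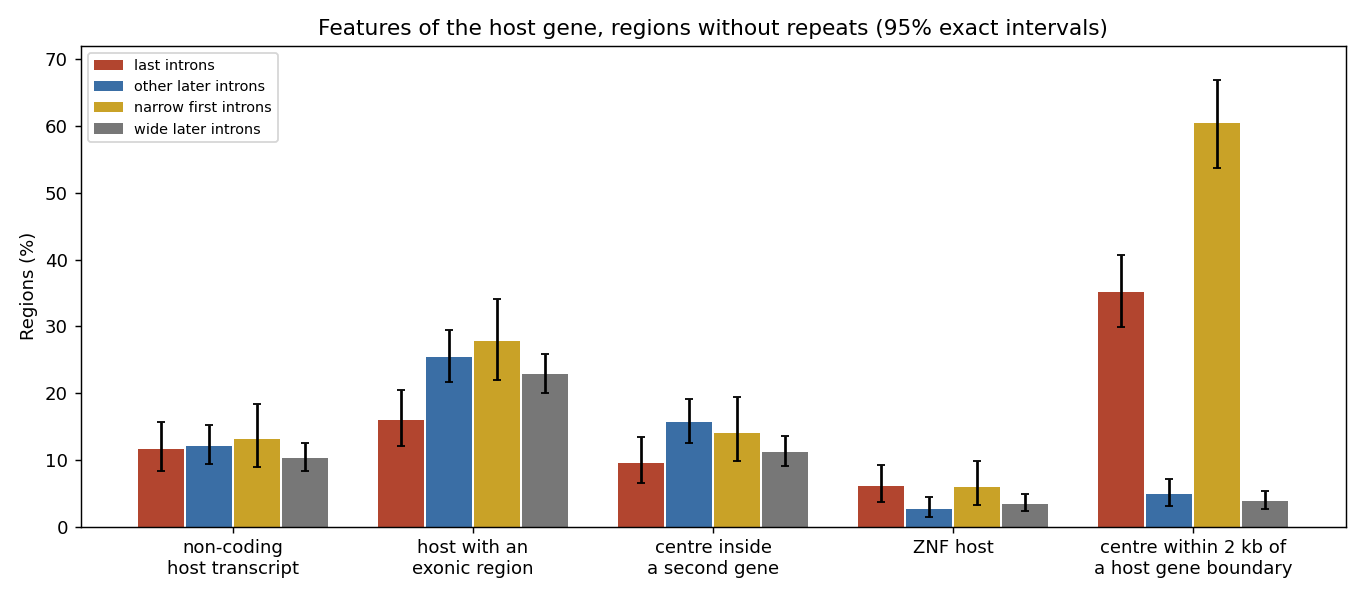
Percentage of regions with each of 5 features of the host gene, in last introns, other later introns, narrow first introns and wide later-intron regions, all without a repeat at the centre; error bars are 95% exact intervals. Last introns stand below other later introns for an exonic region in the host (15.9% and 25.4%), and the 2 kb boundary feature, which the position of an intron largely sets, is highest in first introns (60.5%) and last introns (35.1%).

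The 814 matched regions lay in 759 host genes. Of these 711 had 1 region, 42 had 2, 5 had 3 and 1, CHLSN, had 4. The 4 regions of CHLSN, on chromosome 7, were 708 to 1593 bp wide and lay in introns 2 and 3 of 4, none of them in the last intron. RBFOX3, which encodes a neuronal splicing factor, had regions in introns 5 and 14 of 14 and, in another transcript, in intron 3 of 13. MTCL1, a microtubule crosslinking protein gene, had regions in introns 4, 7 and 11 of 16. ERICH1 had 3 regions of 1138, 1641 and 1018 bp, all in intron 5 of 5. ENOX2 and DLGAP2, the gene of a postsynaptic scaffold protein, had 3 each and none in the last intron. The cadherin gene FAT1 had regions in introns 3 and 25 of 26, and CCDC174 in introns 8 and 10 of 10. Several of these hosts lie close to the end of a chromosome. The first 2 Mb of a chromosome held 50 of the 821 regions (6.09%, 4.55 to 7.95%), against 280 of all 9900 (2.83%), a count made after the data had been seen and not tested. The far ends of the chromosomes and the other sets of intronic regions were not counted.

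Genes of RNA processing and chromatin were among the hosts, as counted over 17 lists and read against the 3.57% of all protein-coding genes. Gene length was not held fixed. The median gene body was 40498 bp over the 481 listed genes, 55717 bp over all 716 hosts and 24093 bp over all protein-coding genes. Of the 481 genes 44 hosted a region (9.15%, 6.72 to 12.1%), 15 of them in a last intron. Among all 716 protein-coding hosts 291 had one in a last intron, and counts of last introns within a list are small beside it. No list was tested, since the lists were chosen with earlier results of these data known.

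Of 29 core spliceosome genes 6 hosted a region (20.7%, 7.99 to 39.7%). SF3B3, a subunit of the branch site complex SF3b, had a region of 954 bp in intron 25 of 25, and CDC5L, a factor of the catalytic spliceosome, one of 754 bp in intron 15 of 15. PRPF31 (1564 bp, intron 11 of 13), PRPF6 (1934 bp, intron 2 of 20) and U2AF2 (926 bp, intron 2 of 11) carried theirs elsewhere. Among 19 SR protein and kinase genes the host was CLK3, a kinase of SR proteins (1032 bp, intron 12 of 12). Among 31 genes of hnRNPs and other splicing regulators it was RBFOX2 (1767 bp, intron 2 of 12), whose region also lay over the pseudogene NDUFA9P1. None of 22 cleavage and polyadenylation genes, CLP1 and CPSF1 among them, hosted one, which allows a share of up to 15.4%.

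Genes of transcription elongation gave 5 hosts of 28 (17.9%, 6.06 to 36.9%). CDK12, a kinase of the RNA polymerase II tail, had a region of 900 bp in intron 13 of 13, and SUPT16H, a subunit of the histone chaperone FACT, one of 1210 bp in intron 25 of 25. Those of CTR9, of the PAF complex (1906 bp, intron 21 of 24), NELFB, of the negative elongation factor (1360 bp, intron 5 of 12), and AFF1 were in other introns. Nuclear RNA decay gave 2 of 26, ZC3H18 (1004 bp, intron 18 of 18), which links the cap-binding complex to the exosome, and UPF2 (1697 bp, intron 2 of 21), of nonsense-mediated decay. Of 30 snoRNA host genes SF3B3 was the 1 protein-coding host, and SNHG14 was a non-coding one.

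Chromatin remodelers gave 7 hosts of 35 (20%, 8.44 to 36.9%). None of the 7 had a region in a last intron, where 291 of all 716 protein-coding hosts had one. The annotated transcripts of these 7 have 18 to 52 introns, however, against a median of 11 over all 821 regions. In transcripts of 21 or more introns the last one held 26.8% of regions (42 of 157). The absence from last introns was not tested. BAZ1A and BAZ1B, subunits of ISWI complexes, had 2 each, in introns 8 and 10 of 26 and in introns 7 and 17 of 18. EP400 had 2 as well, in introns 30 and 51 of 52, and INO80 had 1 in intron 31 of 35. Histone lysine methylation gave 5 of 42 (11.9%, 3.98 to 25.6%). KMT2A, a histone H3 lysine 4 methyltransferase, had a region of 928 bp in intron 35 of 35, and KMT2C, KMT2E, NSD3 and the demethylase gene KDM6A had theirs in other introns. The median gene body of both lists was about 80 kb (81888 and 78725 bp), above that of all hosts.

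Signalling genes of early development were hosts too. The TGF-beta, NODAL and BMP pathways gave 5 of 35 (14.3%, 4.81 to 30.3%). The receptor genes ACVR1 (1505 bp, intron 10 of 10) and ACVR2A (1626 bp, intron 11 of 11) and the repressor gene TGIF1 (1711 bp, intron 2 of 2) had regions in the last intron. The ligand gene BMP7 (intron 3 of 6) and the receptor gene TGFBR2 (intron 6 of 7) had theirs elsewhere. Of 35 WNT pathway genes 2 were hosts (5.71%), both in the last intron: AXIN1, a scaffold of the beta-catenin destruction complex (1482 bp, intron 10 of 10), and LRP6, a WNT co-receptor (1277 bp, intron 22 of 22). Of 36 pluripotency genes 2 were hosts (5.56%), among them LIN28B, an RNA-binding inhibitor of let-7 processing (1847 bp, intron 2 of 3).

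Ion channel and synapse genes gave 6 hosts of 32 (18.8%, 7.21 to 36.4%), and their RNA levels in these cells were unknown here. Their median gene body was 419189 bp, the longest of the 17 lists. Among them were RYR2, SCN8A, CACNA1E and GRIA1, with regions in other later introns, and SHANK2, with one of 992 bp in intron 8 of 8. None of 20 neural ectoderm, 20 mesendoderm and 20 fibroblast marker genes hosted a region, which allows a share of up to 16.8% for each. The neural ectoderm and mesendoderm markers are short, with median gene bodies of 5182 and 5912 bp.

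**Figure D5:**
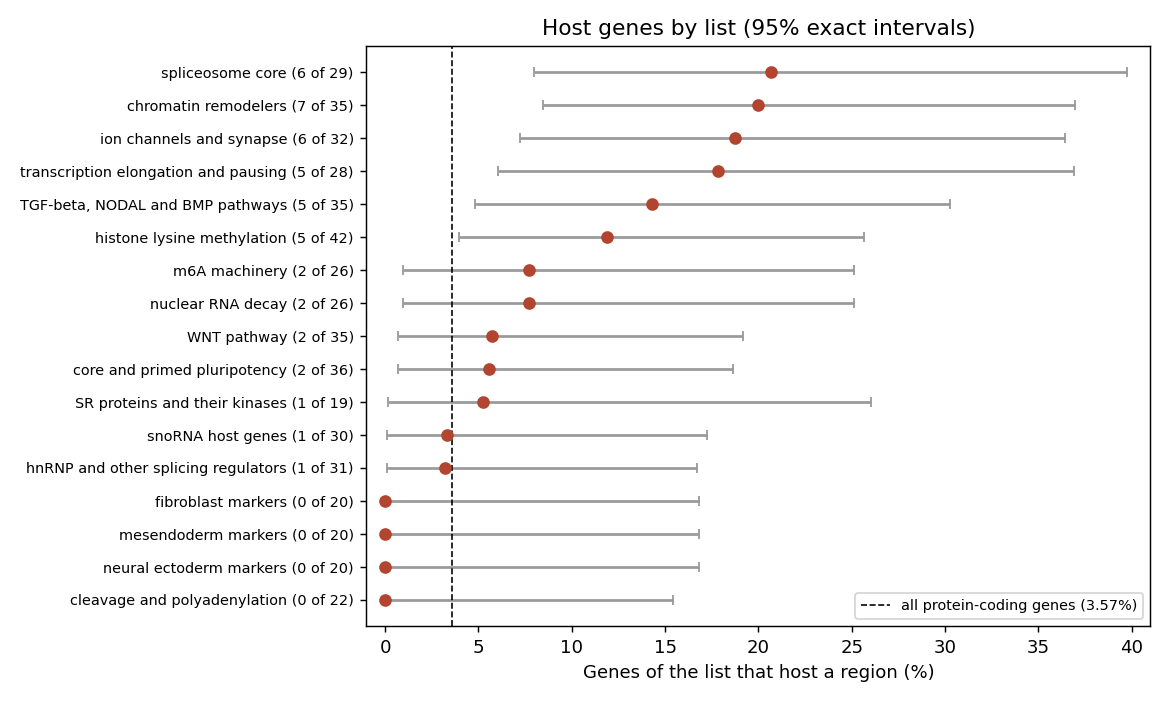
Percentage of the genes in each of 17 lists that hosted at least 1 narrow later-intron region without a repeat, with 95% exact intervals; the dashed line marks the 3.57% of all protein-coding genes. Core spliceosome genes (20.7%), chromatin remodelers (20%) and ion channel and synapse genes (18.8%) stand highest, and 4 lists are at 0.

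The m6A machinery gave 2 hosts of 26 (7.69%, 0.946 to 25.1%). YTHDC1, the nuclear m6A reader, had regions of 1514 bp in intron 10 of 15 and 1490 bp in intron 2 of 15. IGF2BP3, a reader that binds and stabilises messenger RNA, had a region of 1098 bp in intron 3 of 14 (hg38, chromosome 7, 23414722 to 23415819), and its centre lay in a CpG island 55221 bp from the start of the gene. A CpG island lay at the centre of 19 of the 821 regions. The title of the series names IGF2BP1, OTX2 and TFAP2C, and none of these, nor IGF2BP2, hosted a narrow later-intron region.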

How the data were processed

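RNA of wild-type H1 cells was measured by m6A-seq in 2 m6A_IP and 2 input libraries. Nothing in the labels says whether replicates were separate cultures. Peak calling used MACS2 2.2.7.1 and the genome hg38, per the submitters' processing notes, which also name HISAT2 2.2.1, bedtools 2.30.0, Trim Galore 0.6.7, HOMER and SAMtools 1.6. The sources used here do not say what was intersected or with which settings. The authors deposited positions in bp and a HOMER annotation of each centre, with no count, signal or score that varied, so depth was unknown.

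Host genes were found by matching the annotated transcript to the RefSeq gene table of GRCh38.p14. It matched 814 of 821 regions, and 811 had their centre within the body of the host. Strand was taken from RefSeq start windows for 661. Equal weight gave each later intron of a transcript the same chance. There were 5 host features, compared between last and other later introns, later and first introns, and narrow and wide regions, by two-sided Fisher's exact tests with Benjamini-Hochberg adjustment over 15 tests (threshold 0.05; scipy 1.17.1, tried first on simulated data). Members and lists were chosen with earlier results of these data known. Genes were named by a rule: the 10 hosts with most regions, up to 4 hosts and 2 others per list, and those at the extremes of width, distance and intron count. Genes marked in the text fall outside it. A few genes that the rule takes, and the sequences of whole regions, are not reported here.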

Additional observations from a re-analysis of the deposited data

How the results depend on the processing

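No replicate could be left out and no depth or peak height could be varied, because the deposited set holds no value per library. No paired analysis was possible because the files hold 1 intersected set, with no value for each numbered pull-down and input library. Of 83 recomputed values, 72 kept their direction and their side of the threshold, or stayed within the interval. The share in last introns went to 35.05% (main value 38.6%) when transcripts of 2 introns were left out. The difference in ZNF hosts between last and other later introns lost its call at 2.77 points (regions up to 1500 bp), 2.12 (1000 bp or more), 2.60 (transcripts of 3 or more introns) and 3.34 (1 region per gene). That in second genes lost it at -5.63 points (1000 bp or more), -4.82 (3 or more introns) and -3.10 (long non-coding RNA genes only), and turned to 0.185 points with protein-coding second genes only. In 2 cases a call was gained, for exonic regions in the host of later against first introns at -12.1 points among regions of 1000 bp or more (adjusted p = 0.00794), and for pseudogenes in narrow against wide regions at 1.98 points (Fisher's exact test, adjusted p = 0.0254). The cause of these changes was not tested, although several of the alternatives leave fewer regions. The alternatives by kind of second gene, the sets without TCEAL and BEX or ZNF genes, and the comparison with other later-intron sets were added after seeing the data.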
